A study of Homo sapiens with 12 samples.

Results

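The genes of the mitochondrial ribosomal proteins were examined in OVCAR8 cells, a human ovarian cancer cell line, after 7 h with vehicle or drugs. The members were chosen by name, with earlier results of these data known. They were every gene of the count table whose symbol was MRPL or MRPS followed by a number and, where present, a letter from A to C. This gave 77 of 26485 annotated genes, 48 named for the large subunit (MRPL) and 29 for the small subunit (MRPS), and all 77 were among the 14865 genes that passed the filter on low counts. Control cells received vehicle, EC359 cells received 150 nM EC359, trametinib cells received 100 nM trametinib, and combination cells received both agents at these doses. EC359 is an inhibitor of the leukemia inhibitory factor receptor (LIFR), and trametinib is an inhibitor of the kinase MEK. Each of the 4 conditions had 3 libraries of polyA RNA, all conditions shared the 1 cell line, and the labels do not say whether the libraries came from separate cultures, so p-values measure the spread between these libraries only.

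Mitochondrial ribosomes translate the few mRNAs encoded by mitochondrial DNA, which specify core subunits of the respiratory chain and ATP synthase. Their ribosomal RNAs are copied from mitochondrial DNA, whereas their proteins are encoded by nuclear genes, made on cytosolic ribosomes and imported. Some of the proteins have counterparts in bacterial ribosomes, and others were added in mitochondria, so that the particle is rich in protein compared with other ribosomes.

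Library totals ranged from 24790392 to 32467283 counts. The epithelial keratins KRT7, KRT8 and KRT18 and the ovarian cancer markers PAX8 and MSLN were present in all 12 libraries, at means of 100 to 1860 CPM (counts scaled to the size of the library). EPCAM (11.2 CPM) and WT1 (3.52 CPM) were low, CDH1 had 2 to 15 counts per library and did not pass the filter, and MUC16, SOX17 and EMX2 were at or near 0. Of 15 markers of other cell types, PTPRC, CD3E, DCN and HBB had no count in any library, and 4 (COL1A1, CD68, PDGFRB and PDPN) passed the filter. The summed level of those 15 genes, mostly COL1A1, was 489.5 to 514 CPM in control cells, 303 to 319 under EC359, 596 to 604 under trametinib and 400 to 422 under both agents, and its part in the results below was not tested.

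In control cells the members together took 0.553% of all counts. Scaled to CPM with normalization factors, their summed level was 5300.5 ± 45.4 CPM in control (SD, n = 3 here and below). EC359 cells had 4439.7 ± 63.9 CPM, trametinib cells 5037.6 ± 55.8 CPM and combination cells 4308.8 ± 59.1 CPM. No library of a treated condition reached the lowest control library at 5248 CPM, and the EC359 and combination libraries lay below all trametinib libraries. In RNA from whole cultures, a lower share in every cell and a loss in some cells cannot be told apart.

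Per kilobase of annotated exon, MRPL51 had the highest control level at 245 ± 13.1 CPM per kb, followed by MRPL28 at 157 ± 2.74 and MRPL37 at 144 ± 0.798. The lowest values belonged to MRPS18B at 0.0899 ± 0.0267, MRPS36 at 5.66 ± 1.54 and MRPL45 at 6.18 ± 0.732 CPM per kb. The annotation lists the exons of these 3 lowest genes on more than 1 sequence, and their length here is the sum over copies, which lowers a value per kilobase. Among members annotated on 1 sequence, MRPL57 was lowest with 7.35 ± 0.867 CPM per kb.

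**Figure D1:**
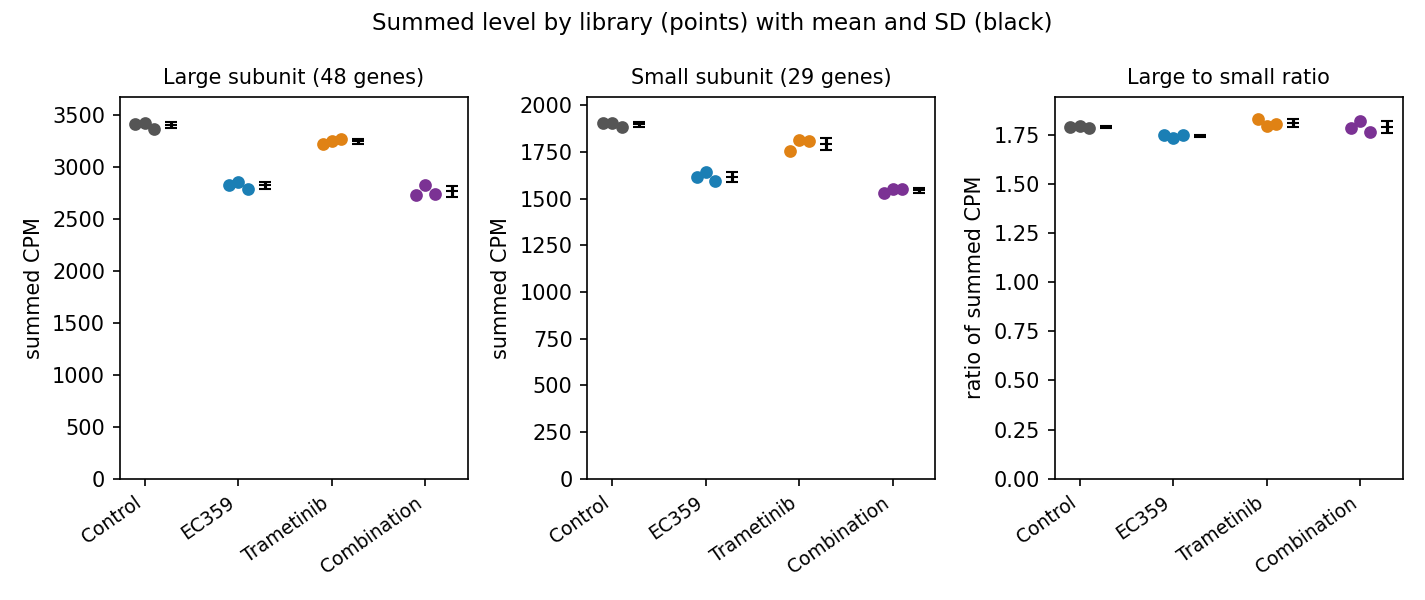
Summed CPM of the 48 large subunit genes, of the 29 small subunit genes, and the ratio of both sums, for each library (points) with the mean and SD of the 3 libraries (black). Both sums were lowest with the combination (2764.7 CPM large, 1544.1 CPM small) and highest in control (3401.6 and 1898.9 CPM), while the ratio stayed between 1.737 and 1.831.

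The large and the small subunit were lowered side by side. The large subunit genes summed to 3401.6 ± 31.8 CPM in control cells and to 2822.4 ± 37.1 under EC359, 3244.7 ± 25.4 under trametinib and 2764.7 ± 52 under both agents. The small subunit genes summed to 1898.9 ± 13.7 CPM in control and to 1617.3 ± 26.9, 1792.9 ± 31.2 and 1544.1 ± 12 in the same order of treatments. The ratio of large to small was 1.791 ± 0.00458 for control cells, 1.745 ± 0.00693 for EC359 cells, 1.81 ± 0.019 for trametinib cells and 1.79 ± 0.029 for combination cells. The 3 EC359 ratios lay below the 3 control ratios, whereas the control range fell within that of the combination. Over the 73 members annotated on 1 sequence, the ratios of EC359 libraries were 1.739 to 1.773 and those of controls 1.786 to 1.792.

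To ask which members differed with EC359, EC359 cells were compared with control cells. EC359 lowered 63 of 77 members and raised none at an adjusted p-value under 0.05 (quasi-likelihood F-test of edgeR, adjusted over 14865 genes after Benjamini and Hochberg), where 30.3% of all genes tested were lower and 30.8% were higher. The median log2 fold change was -0.27 over members and -0.01 over all genes. In 65 members all 3 EC359 libraries lay below all 3 control libraries, an arrangement found in 32.3% of all genes. When libraries were scaled by total counts only, the median was -0.40 over members and -0.15 over all genes, and the split of calls over all genes moved from 30.3% lower and 30.8% higher to 44.9% lower and 21% higher.

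The 5 members with the lowest EC359 values were MRPL57, MRPS18C, MRPS26, MRPL16 and MRPL35. MRPL57, a large subunit protein found only in mitochondria, stood at 22.1, 17.7 and 18.8 CPM in the control libraries and at 12.6, 14.0 and 11.4 CPM with EC359. Its groups did not overlap (log2 -0.62, SE 0.0787, edgeR adjusted p = 2.18e-09). MRPL35, the counterpart of bacterial L35, was at 46.3, 41.2 and 46.7 CPM in control and at 29.4, 31.3 and 29.4 CPM with EC359 (log2 -0.57, SE 0.0503, edgeR adjusted p = 6.39e-15). All EC359 libraries of MRPL35 again lay below the controls. The log2 values of MRPS18C, MRPS26 and MRPL16 were -0.59, -0.58 and -0.57, and these 3 genes are followed through the combination further on.

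Trametinib alone had smaller values in the same direction. It lowered 21 of 77 members and raised none, where 15.2% of all genes tested were lower and 13% were higher, and the median log2 fold change was -0.07 over members and 0.00 over all genes. In 29 members the trametinib libraries lay below all controls, against 20.4% of all genes. The count rested in part on single libraries, with 13 members lower without trametinib replicate 1 and 14 without control replicate 1.

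MRPL15, the counterpart of bacterial L15, had the lowest trametinib value. It was at 104, 105 and 103 CPM in control and at 88.4, 84.9 and 87.9 CPM with trametinib (log2 -0.26, SE 0.0323, edgeR adjusted p = 3.73e-09). No library overlapped, and MRPL15 went on to 76.3, 76.3 and 80.2 CPM with EC359 and to 63.4, 66.1 and 66.4 CPM with the combination. MRPL32, counterpart of bacterial L32, changed by -0.23 with trametinib, MRPS23 by -0.21 and MRPS35 by -0.20, the last 2 being small subunit proteins found only in mitochondria. MRPS17, counterpart of bacterial S17, was at -0.19 (edgeR adjusted p = 0.0381), and this call was lost when some single libraries were left out. In MRPS35 each agent alone gave nearly the same value, -0.20 with EC359 and -0.20 with trametinib, and the combination gave -0.42.

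The combination was then compared with control. It lowered 59 of 77 members and raised 4, where 34.7% of all genes tested were lower and 35% were higher, with a median log2 fold change of -0.34 over members and -0.01 over all genes. In 61 members all combination libraries lay below all controls (35.8% of all genes), in 5 they lay above, and in 11 the groups overlapped. Of all 14865 genes tested, 5347 lay above and 4199 overlapped. MRPS18C was the only member that was lowered at least 2-fold, a level of change reached by 5.87% of all genes in that direction. With total counts only, the split of calls over all genes moved to 45.8% lower and 25.8% higher, and none of the 4 higher members passed.

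**Figure D2:**
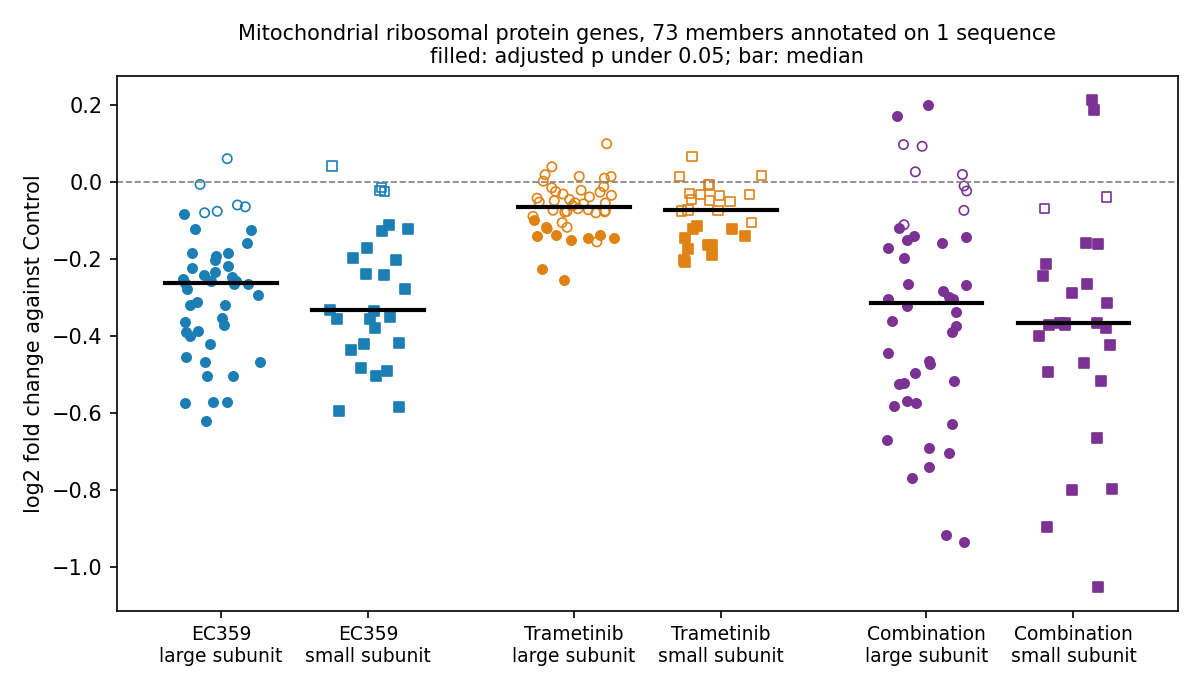
Log2 fold change against control of the 73 members annotated on 1 sequence, by treatment and subunit; each point is a gene, filled where the adjusted p-value was under 0.05, and the black bar is the median of the points shown. EC359 and the combination placed most genes below 0, and trametinib values lay closer to 0; the 4 filled points above 0 with the combination lost their call under scaling by total counts only.

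MRPS18C, a small subunit protein related to bacterial S18, was at 30.1, 30.5 and 29.2 CPM in control, at 20.5, 20.6 and 18.3 with EC359, at 27.0, 28.8 and 27.9 with trametinib and at 13.6, 14.6 and 15.1 with the combination. Every combination library lay below every EC359 library, which in turn lay below the other 6. Against control MRPS18C fell by 51.7% with the combination (log2 -1.05, SE 0.0609, edgeR adjusted p = 1.88e-22) and fell by 33.8% with EC359. The gene spans chr4:83455932-83461723 on the plus strand of hg38, with 6 exons.

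MRPL16, the counterpart of bacterial L16, was at 86.0, 84.2 and 78.9 CPM in control and at 46.1, 42.9 and 41.1 with the combination. EC359 libraries stood between at 54.1 to 57.1 CPM, and the combination value was -0.94 on the log2 scale (SE 0.041, edgeR adjusted p = 7.29e-28). The gene lies at chr11:59806135-59810872 on the minus strand. MRPL46, a large subunit protein found only in mitochondria, was at 26.5, 24.8 and 27.3 CPM in control and at 13.3, 14.1 and 14.2 with the combination (log2 -0.92, SE 0.0618, edgeR adjusted p = 1.17e-19). MRPS26, a small subunit protein found only in mitochondria, was at 59.6, 61.1 and 57.2 CPM in control and at 30.9, 31 and 33.6 with the combination (log2 -0.90, SE 0.0477). None of these groups overlapped, and for MRPS17 the corresponding log2 value was -0.80.

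The 4 members higher with the combination were MRPS6, MRPL48, MRPS24 and MRPL18. MRPS6, the counterpart of bacterial S6, was at 36.3, 36.0 and 35.1 CPM in control and at 40.7, 41.1 and 42.5 with the combination (log2 0.21, SE 0.0464, edgeR adjusted p = 5.93e-05), while EC359 libraries were at 33.5 to 36.4 CPM and trametinib libraries at 35.1 to 37.0. MRPS24, the mitochondrial counterpart of bacterial S3, was at 99.1, 100 and 95.0 CPM in control and at 111, 111 and 113 with the combination (log2 0.19, SE 0.0312, edgeR adjusted p = 5.05e-07). In both genes the combination libraries lay above the other 9, and neither single agent passed the test. MRPL48 and MRPL18 had combination values of 0.20 and 0.17. Scaled by total counts only, the 4 values were 0.07 (MRPS6), 0.06 (MRPL48), 0.05 (MRPS24) and 0.03 (MRPL18), and none passed.

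**Figure D3:**
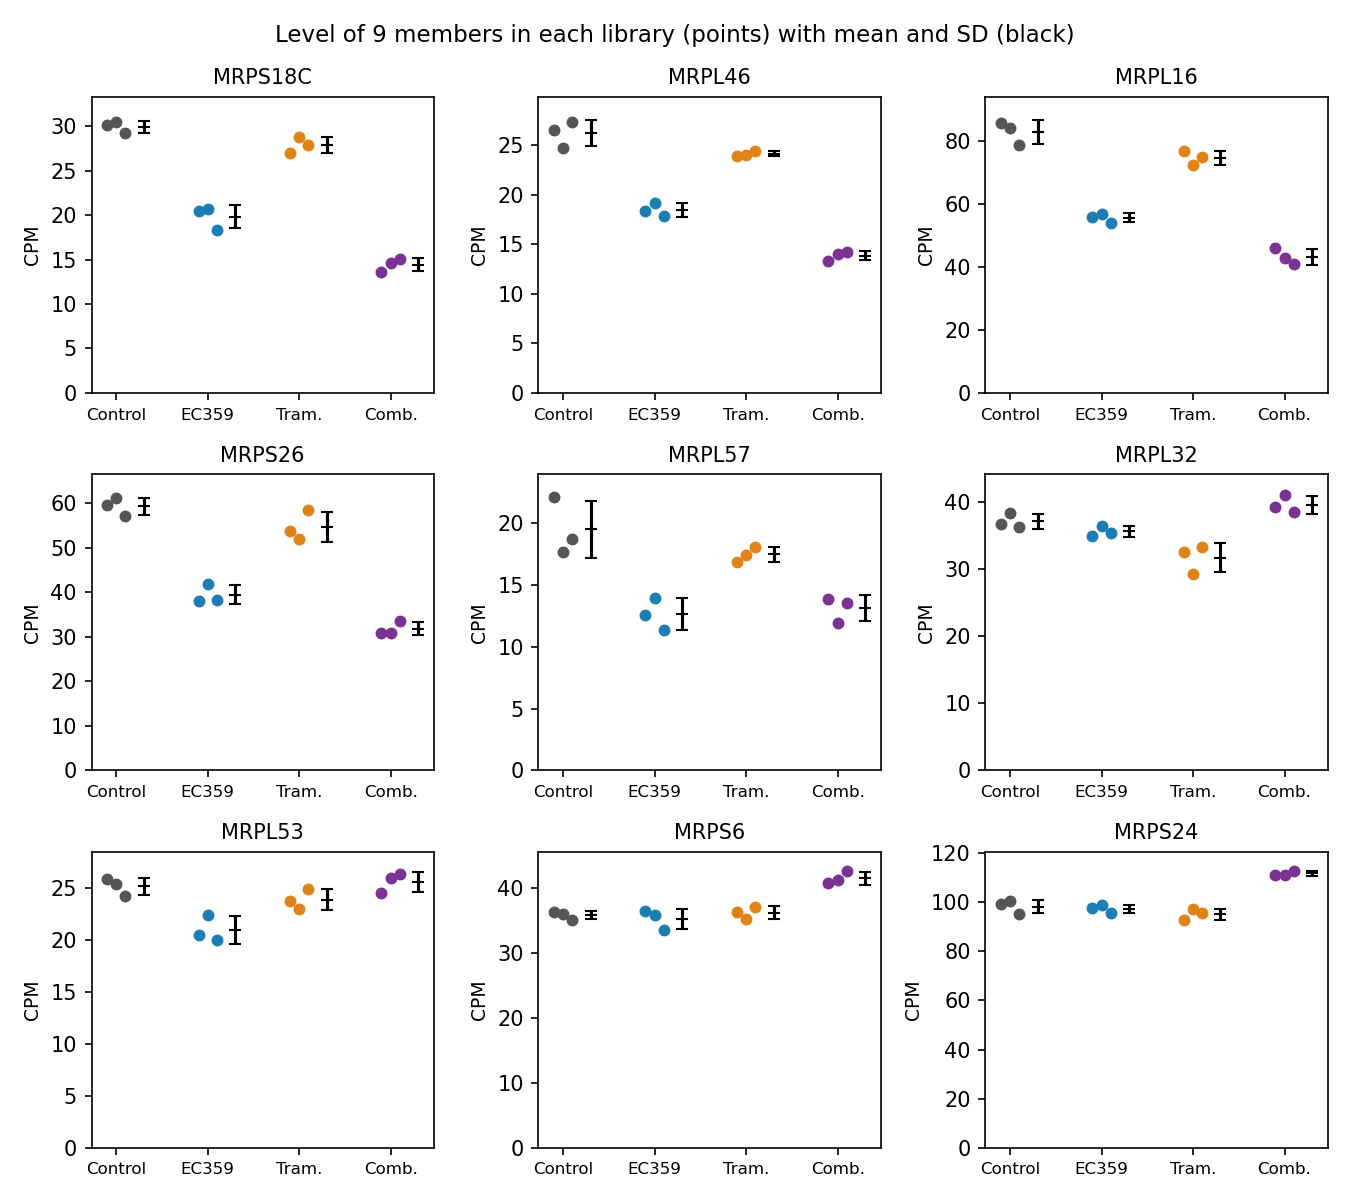
CPM of 9 members in each of the 12 libraries (points) with the mean and SD of each condition (black); all axes start at 0. MRPS18C, MRPL46, MRPL16 and MRPS26 stepped down from control through EC359 to the combination, MRPL57 had a mean of 12.6 CPM with EC359 and 13.1 CPM with the combination, and MRPS6 and MRPS24 were above the other conditions with the combination at this scaling; with total counts only their values against control were 0.07 and 0.05 on the log2 scale and did not pass.

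Over the 3 comparisons with control, 39 members (50.6%, against 17.7% of all genes tested) were lower with EC359 and the combination but not with trametinib, and 18 (23.4% against 5.33%) were lower with all 3 treatments. A further 6 were lower with EC359 alone (7.79% against 3.98%) and 2 with trametinib and the combination (2.6% against 2.33%, MRPS30 being 1 of them). The combination alone was higher for 4 (5.19% against 6.6%), trametinib alone was lower for 1, MRPL32 (1.3% against 0.888%), and 7 passed in none (9.09% against 19.7%). These comparisons share the control libraries, and the counts do not test a difference between treatments.

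By subunit, EC359 lowered 40 of 48 large and 23 of 29 small subunit genes, 83.3% and 79.3% against 30.3% of all genes tested, with medians of -0.26 and -0.33. Trametinib lowered 10 large (20.8%) and 11 small subunit genes (37.9%), against 15.2% of all genes, with medians of -0.07 in both. The combination lowered 36 and raised 2 large subunit genes (median -0.30), and it lowered 23 and raised 2 small subunit genes (median -0.37), where 34.7% of all genes were lower and 35% higher. The names do not always match the particle: MRPS18A and MRPS30 are placed in the large subunit in structures of the human mitochondrial ribosome, and MRPS36 was described as a part of the 2-oxoglutarate dehydrogenase complex.

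Members were also grouped by protein class, to be read beside the 34.7% and 35% of all genes that were lower and higher with the combination and the 15.2% lower with trametinib. Of 30 large subunit proteins with bacterial counterparts, 25 were lower with the combination and 1 was higher (median -0.34), and 10 were lower with trametinib. Of 20 large subunit proteins found only in mitochondria, 13 were lower with the combination and 1 was higher (median -0.19), and 1 (5% of 20) was lower with trametinib. Of 16 conserved small subunit proteins, 12 were lower with the combination and 2 were higher (median -0.37), and 5 (31.2%) were lower with trametinib. Of 10 mitochondria-specific small subunit proteins, 9 were lower with the combination and none was higher (median -0.37), and 5 (50%) were lower with trametinib. The classes were described by counts and were not tested against each other.

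To see where 1 agent added to the other, the combination was compared with each single agent. Against EC359 it was lower for 31 members and higher for 11, where 25.2% and 24.1% of all genes were lower and higher, and the member median was -0.02. The lowest were MRPS18C at -0.46, MRPL46 at -0.41 and MRPL10 at -0.40, and the highest were MRPL53 at 0.28, MRPL18 at 0.25 and MRPS6 at 0.24. MRPL10, the counterpart of bacterial L10, was at 64.0, 65.6 and 61.1 CPM with EC359 and at 47.4, 49 and 48.4 with the combination, with no overlap. Against trametinib the combination was lower for 56 members and higher for 6, where 32.9% and 35.3% of all genes were lower and higher, with a member median of -0.23. The lowest there were MRPS18C at -0.95, MRPL46 at -0.80 and MRPL16 at -0.79, and the highest were MRPL32 at 0.32, MRPS24 at 0.23 and MRPS6 at 0.20. With total counts only, 66 members were lower and 2 higher against trametinib (median -0.39), all genes split into 47.6% lower and 23.5% higher, and MRPS6 was at 0.03 and did not pass.

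An interaction term tested whether the combination departed from the sum of both single agents on the log2 scale. It was below 0 for 14 members and above 0 for 18, where 15.9% and 14.4% of all genes passed in these directions, and the member median was 0.02. With total counts only, 18 members were below 0 and 11 above, where 19.1% and 11.7% of all genes passed in these directions. DESeq2 gave 14 members below and 10 above, so which side held more members depended on the processing. Shares of all genes were not counted with DESeq2, so its counts cannot be read against a background. Below 0 stood 9 large and 5 small subunit genes, led by MRPS18C at -0.35 (SE 0.0851, edgeR adjusted p = 0.000941), MRPL46 at -0.30 (SE 0.0866, edgeR adjusted p = 0.00638) and MRPL39, another mitochondria-specific large subunit protein, at -0.27 (SE 0.0714, edgeR adjusted p = 0.00283). Above 0 stood 10 large and 8 small subunit genes, led by MRPL32 at 0.38 (SE 0.0699, edgeR adjusted p = 2.09e-05), MRPL53 at 0.36 (SE 0.0826, edgeR adjusted p = 0.000553) and MRPS24 at 0.25 (SE 0.0446, edgeR adjusted p = 1.39e-05). MRPL32 shows how such a value arises: it was at 36.7, 38.4 and 36.4 CPM in control, at 34.9, 36.5 and 35.4 with EC359, at 32.5, 29.3 and 33.4 with trametinib and at 39.3, 41.1 and 38.5 with the combination. Trametinib alone was at -0.23, and neither EC359 alone (-0.06) nor the combination (0.09) passed against control. Under the main scaling the combination libraries lay above all others, the closest values being 38.5 CPM against 38.4 CPM in control. That order depended on the normalization factors, which were 1.039 to 1.047 in control and 0.9467 to 0.9492 in combination libraries. MRPL53, a mitochondria-specific large subunit protein, was at 20.5, 22.4 and 19.9 CPM with EC359 and back within the control range, at 24.5, 25.9 and 26.3 CPM, with the combination.

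**Figure D4:**
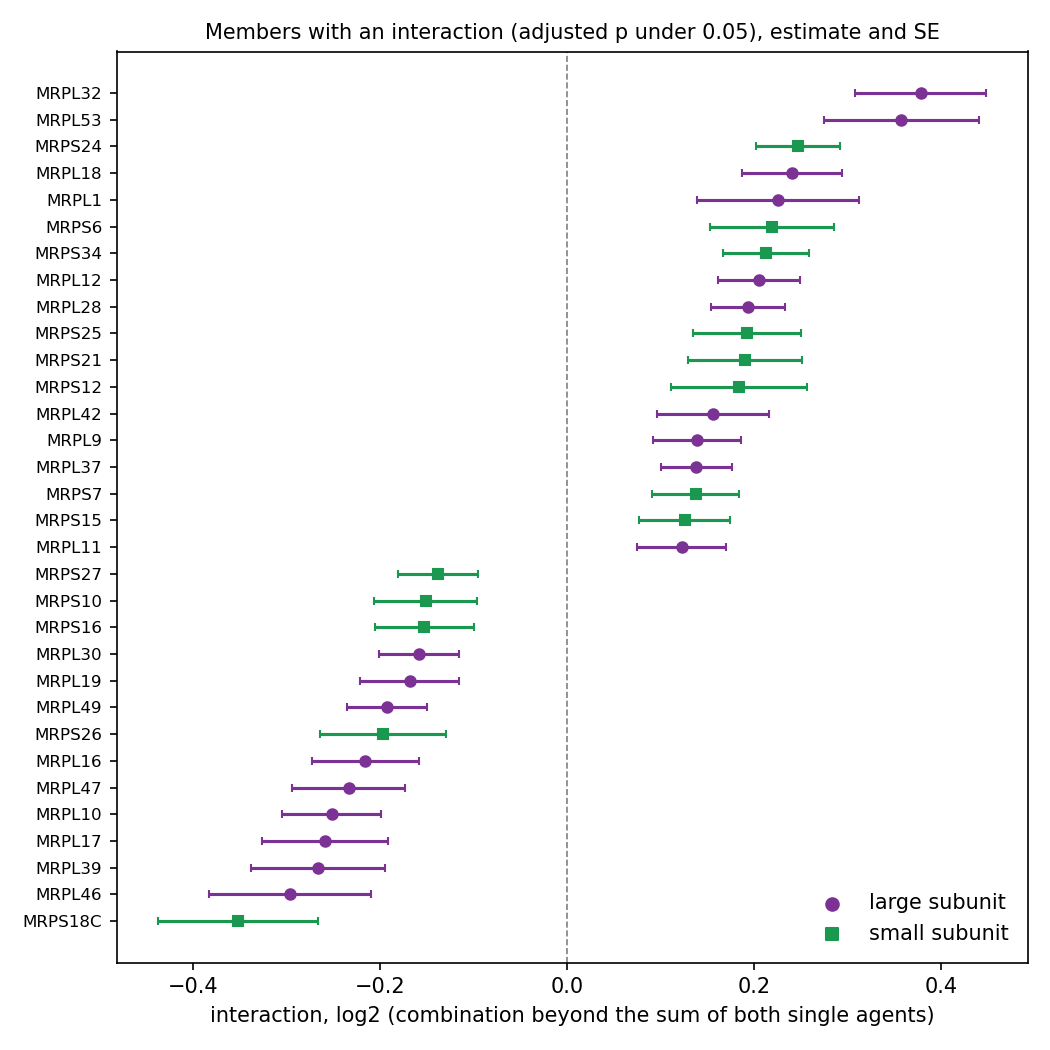
Interaction estimate (log2 scale, with SE) for the 32 members with an adjusted p-value under 0.05; circles are large and squares small subunit genes. Estimates ran from -0.35 (MRPS18C) to 0.38 (MRPL32), and both subunits were present on both sides of 0.

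The 3 related S18 proteins differed in the size of their values. MRPS18C was lowered as described above. MRPS18A was at 40.5, 44.2 and 43.2 CPM in control and at 37.5, 39.8 and 37.5 with the combination (log2 -0.16, SE 0.0477, edgeR adjusted p = 0.00282), and EC359 also lowered it (log2 -0.11, edgeR adjusted p = 0.0398), although its EC359 libraries overlapped the controls and this call was lost in some fits without 1 library. MRPS18B could not be read in these data: 11 libraries lay between 0.519 and 1.94 CPM, and EC359 replicate 2 stood at 37.4 CPM. Its EC359 log2 fold change was 3.77 with an edgeR adjusted p of 0.0508, and without EC359 replicate 2 it was -0.51. MRPS30, at 48.3, 48.9 and 46.9 CPM in control, did not pass with EC359 (0.04) and was at 43.4, 43.5 and 42 CPM with the combination (log2 -0.16, edgeR adjusted p = 0.000793).

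Spread between libraries set 4 members apart. MRPS18B is annotated on 7 sequences of hg38, and MRPL23, MRPS36 and MRPL45 on 2 each, alternate or unplaced sequences included. Their mean within-condition coefficients of variation (CV) were 63.6%, 35.2%, 30.8% and 12.1%, against 1.2% to 8.32% (median 3.14%) for the other 73 members. MRPL23, for example, was at 10.3, 24.8 and 10.3 CPM in the trametinib libraries, and MRPS36 at 13.5, 11.9 and 19.7 CPM in control. None of the 4 passed in any comparison, so the 73 others held all calls, 63 of them lower with EC359 and 59 with the combination. Over genes of the same range of levels, the median CV was 3.92% for 10027 genes on 1 sequence and 14.6% for 177 genes on several.

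**Figure D5:**
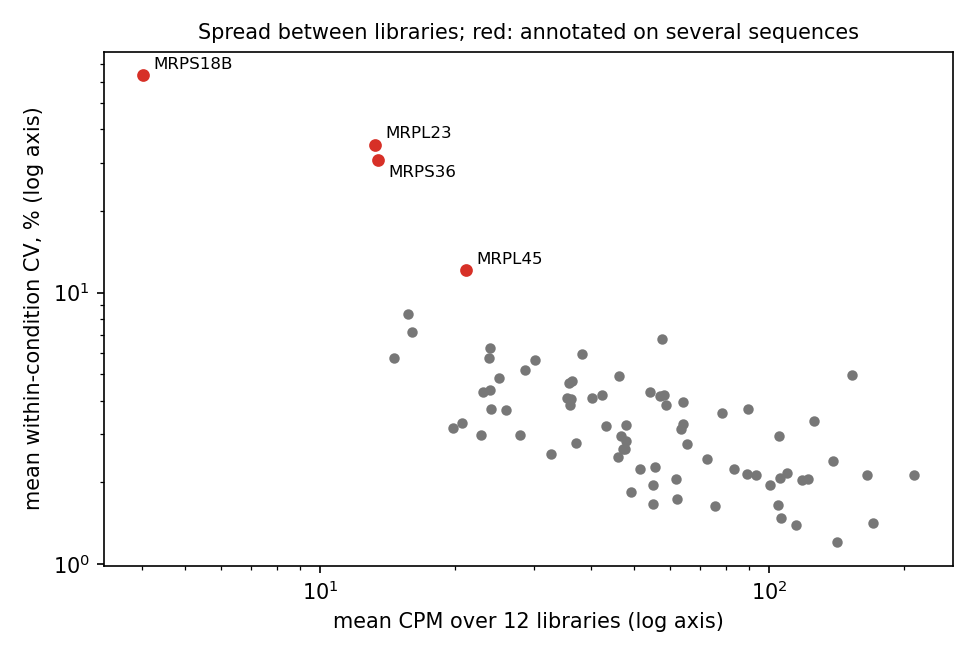
Mean within-condition CV of each member against its mean CPM over 12 libraries, both on log axes; red points are the 4 members annotated on several sequences. These 4 lie between 12.1% and 63.6%, above all 73 other members (highest 8.32%).

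Members were also set against genes with as many exons. All 7 members with 1 to 2 exons were lower with EC359 and with the combination (medians -0.47 and -0.47), against 31.9% and 36.7% of 1554 tested genes of that class. With 3 to 5 exons, 24 of 34 members were lower with EC359 and 25 with the combination, against 39.8% and 41.7% of 2959 genes. With 6 to 10 exons, the counts were 29 and 24 of 32 members, against 35.4% and 38% of 4195 genes. Only 4 members had over 10 exons, and 3 of them were lower with EC359 and 3 with the combination, against 21.8% and 28.5% of 6157 genes.

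Several members start close to another gene. Of 73 members on 1 sequence, 22 (30.1%) had a gene starting within 1000 bp on the opposite strand and pointing away, against 14.6% of 14107 tested genes. MRPL46 and MRPS11 form such a pair of members, 51 bp apart on chromosome 15. Of the 19 tested partners that were not members, EC359 lowered 9 (47.4%) and raised 4 (21.1%), against 30.3% and 30.8% of all genes, and the combination lowered 7 (36.8%) and raised 6 (31.6%), against 34.7% and 35%. MRPS11, the counterpart of bacterial S11, was at 24.4 ± 1.1 CPM with EC359 and 25.2 ± 0.354 with the combination, whereas MRPL46 went from 18.5 ± 0.666 to 13.9 ± 0.479 CPM. Their combination values against control were -0.37 (MRPS11) and -0.92 (MRPL46). MRPS18C lies 49 bp from HELQ, which encodes a DNA helicase, and the combination values were -1.05 for MRPS18C and 0.12 for HELQ. HELQ did not pass with the combination, and with EC359 both genes were lower, at -0.59 (MRPS18C) and -0.21 (HELQ). MRPL32 starts 134 bp from PSMA2, which encodes a proteasome subunit, and the partner stood at 0.06 with the combination beside 0.09 for MRPL32.

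Promoters were searched for the letters of 5 motifs tied to nuclear genes for mitochondrial proteins or to growth signals. RefSeq promoters of GRCh38.p14, each of 300 bases, were found for 68 of 77 members. The start of each was the RefSeq start nearest to the gene's first base in the count table. Its offset from that base ran from -41 (MRPS17) to 425 bases (MRPL57), positive values lying inside the gene. A promoter can therefore hold bases of the gene as it was counted, and for MRPL57 (425) and MRPL9 (420) it does not reach the first base. On either strand, the NRF1 letters GCATGCGC were present in 6 members (8.82%, against 5.44% of 10689 tested genes with a promoter), the ETS letters CCGGAAGT in 12 (17.6% against 8.33%), and the YY1 letters AAGATGGC in 20 (29.4% against 5.25%). The E-box CACGTG was present in 6 (8.82% against 9.8%) and the CRE TGACGTCA in none (0% against 3.2%). Over all 16198 genes with a promoter the shares were 4.12%, 5.83%, 3.82%, 8.4% and 2.5%, in the same order. In 15 members the YY1 letters lay on the gene's strand between 6 and 35 bases after the start (22.1%, against 3.03% of tested genes within the first 50 bases). They include ATG, so such a match can also be a first codon with its neighbours.

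Sites are shown for members with the lowest and the highest combination or interaction values, 30 bases each, read 5′ to 3′ on the gene's strand, with the motif letters or their reverse complement in capitals. The MRPS18C sites are an NRF1 match (chr4:83455911-83455940, +) and an E-box (chr4:83455867-83455896, +). ETS matches are shown for MRPL16 (chr11:59810767-59810796, -), MRPL53 (chr2:74472734-74472763, -) and MRPL18 (chr6:159790429-159790458, +). The starts used for MRPL16 and MRPL53 had offsets of 94 and 135 bases, and both ETS matches lie inside the gene as annotated in the count table. MRPL32 has an NRF1 match (chr7:42932326-42932355, +). YY1 matches are shown for MRPL46 (chr15:88467362-88467391, -) and MRPS24 (chr7:43869480-43869509, -).
MRPS18C NRF1: agaaaggtgctGCGCATGCgtattgaaaaa
MRPS18C E-box: aatcataagcctCACGTGacctgccgcgta
MRPL32 NRF1: tctgtgcctgtGCGCATGCtgaaagcaggg
MRPL16 ETS: gagtgaacacaACTTCCGGccccactgagc
MRPL53 ETS: gcagccggcggCCGGAAGTctatcccgcag
MRPL18 ETS: ggggacttgctACTTCCGGgtcggtggcgt
MRPL46 YY1: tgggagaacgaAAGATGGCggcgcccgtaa
MRPS24 YY1: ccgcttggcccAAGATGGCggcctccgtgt
With the combination, the ETS members MRPL16 and MRPL18 were at -0.94 and 0.17, the YY1 members MRPL46 and MRPS24 at -0.92 and 0.19, and the NRF1 members MRPS18C and MRPL32 at -1.05 and 0.09. MRPL32 did not pass in that comparison, and MRPL18 and MRPS24 did not pass with total counts only. Members with and without a motif had medians of -0.36 and -0.32 for NRF1, -0.29 and -0.34 for ETS, -0.31 and -0.33 for YY1, and -0.44 and -0.32 for the E-box with the combination. These are descriptions of 6 to 20 members with a motif and were not tested. A match is a run of letters, not a shown binding site.

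The neighbouring steps of mitochondrial translation were followed with lists of genes, whose counts stand beside 34.7% lower and 35% higher of all genes with the combination. Those shares of all genes were 45.8% and 25.8% with total counts only. For EC359 they were 30.3% and 30.8%, and for trametinib 15.2% and 13%, or 11.9% and 16.7% with total counts only. Of 6 mitochondrial ribosome proteins with other names, the combination lowered 4 and raised 1 (median -0.09), or with total counts only lowered all 6 (median -0.23). ICT1, a peptidyl-tRNA hydrolase built into the large subunit, was the lowest at -0.88 (edgeR adjusted p = 2.6e-21), and DAP3, a GTP-binding protein of the small subunit, was at 0.07 and had been raised by EC359 (0.18). Under scaling by total counts only, DAP3 was lower with the combination, at -0.07, and did not pass with EC359 (0.05). Of 28 genes for ribosome assembly and rRNA modification, the combination lowered 21 and raised 3 (median -0.42), EC359 lowered 19 and raised 3 (median -0.28), and trametinib lowered 9 and raised 1 (median -0.07). With total counts only the combination lowered 24 and raised 2 (median -0.56), and trametinib lowered 2 and raised 1 (median -0.05). TFB1M, which dimethylates the small rRNA, was at -1.58 with the combination, and DDX28, a helicase of large subunit assembly, at -1.42. MRM1, an rRNA methyltransferase gene, was called lower but went from 0.354 ± 0.161 CPM in control to 0.0748 ± 0.0648 CPM, below the level of 3 counts per library, and no fold is given for it. TFB1M and DDX28 also had interactions of -0.81 and -0.70. The highest were RPUSD4 at 0.26, METTL17 at 0.22 and MTG1 at 0.14, a pseudouridine synthase, a methyltransferase-like assembly factor and an assembly GTPase, and MTG1 did not pass with total counts only.

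Of 21 translation factor genes, the combination lowered 13 and raised 4 (median -0.15), or with total counts only lowered 15 and raised 1 (median -0.29). MTFMT, which formylates the initiator methionyl-tRNA, was at -0.99, and PDF, which removes the formyl group, was at -0.96, followed by TACO1, a translational activator, at -0.65. TUFM, the elongation factor Tu of mitochondria, was at 0.19, GTPBP3, a tRNA modification enzyme, at 0.17 and LRPPRC, an mRNA-binding protein, at 0.09. TUFM also passed with total counts only (0.05), whereas GTPBP3 (0.03) and LRPPRC (-0.05) did not. Of 20 genes for charging mitochondrial tRNAs, the combination lowered 14 and raised 2 (median -0.18), or with total counts only lowered 16 and raised 1 (median -0.31). The prolyl-tRNA synthetase PARS2 was at -3.40 and the methionyl-tRNA synthetase MARS2 at -2.35, both beyond every ribosomal protein, and TARS2 was at -0.73. PARS2 and MARS2 were low in level, at means of 9.47 and 17.6 CPM in control and 0.892 and 3.45 CPM with the combination. SARS2 (0.38) and CARS2 (0.18) were higher, and CARS2 did not pass with total counts only (0.04).

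Of 15 genes for transcription and upkeep of mitochondrial DNA, trametinib lowered 8 and raised none (median -0.16), and the combination lowered 9 and raised 2 (median -0.23). Trametinib lowered 6 and raised none with total counts only (median -0.14), and the combination lowered 13 and raised 1 (median -0.37). MTERF1, a terminator of mitochondrial transcription, was at -1.78 with the combination, TEFM, an elongation factor, at -0.86, and POLG2, a subunit of the DNA polymerase, at -0.65. Its catalytic partner POLG was at 0.43 and the topoisomerase TOP1MT at 0.12, the latter at -0.02 and not passing with total counts only. TFAM, which packages mitochondrial DNA, was at -0.31, and POLRMT, the RNA polymerase, was at 0.14 under EC359, -0.25 under trametinib and -0.24 under both agents. With total counts only, POLRMT did not pass under EC359 (0.006) and was at -0.38 under both agents. The count tables listed none of the 13 mRNAs of mitochondrial DNA, so the messages these ribosomes translate were not analysed here.

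Of 13 tested regulators of nuclear genes for mitochondria, the combination lowered 4 and raised 4 (median -0.04), near the 34.7% and 35% of all genes, or with total counts only lowered 5 and raised 3 (median -0.18). MYC was at 0.75 under EC359, -0.52 under trametinib and 0.43 under both agents (edgeR adjusted p = 7.6e-18 for the last). YY1 was at 0.35 with the combination and PPRC1, a coactivator, at 0.59. PPARGC1B, another coactivator, was at -1.0, ESRRA at -0.26, GABPA, a subunit of an ETS factor, at -0.24, and NRF1 at -0.19. Under the main scaling, NRF1 and GABPA did not pass with either single agent. With total counts only, GABPA was lower with EC359 (-0.11, edgeR adjusted p = 0.0404).

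The cytosolic ribosome gave a contrast that depended on scaling. Of 82 cytosolic ribosomal protein genes tested, paralogs with close names included, EC359 lowered 6 and raised 53 (median log2 fold change 0.09) under the main scaling, whereas with total counts only it lowered 38 and raised 7 (median -0.05). The combination lowered 4 and raised 69 (median 0.17), or with total counts only lowered 16 and raised 30 (median 0.03). Trametinib lowered 33 and raised none (median -0.06), or with total counts only lowered 14 and raised none (median -0.03). Of all genes tested, EC359 lowered 30.3% and raised 30.8% under the main scaling, and lowered 44.9% and raised 21% with total counts only. The combination lowered 34.7% and raised 35% of all genes, or 45.8% and 25.8% with total counts only. For trametinib these shares were 15.2% and 13%, or 11.9% and 16.7%. Under each scaling the cytosolic median with EC359 or the combination lay above that of the mitochondrial members, -0.27 and -0.34 under the main scaling and -0.40 and -0.48 with total counts only. Many cytosolic ribosomal protein genes have processed pseudogenes, among which the authors' counting could divide reads.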

How the data were processed

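PolyA RNA from OVCAR8 cells was sequenced as 12 stranded 100 bp paired-end libraries. The deposited values are expected counts per gene: per the file headers, the authors ran featureCounts 1.5.0-p1 on hg38 with a minimum mapping quality of 2 and divided reads with several placements or genes as fractions. The submitters' processing notes also name bcl2fastq and HISAT2. Values were rounded, filtered with filterByExpr of edgeR 4.0.16 (minimum count 10, total 15), which left 14865 of 26485 genes, and scaled by TMM. One robust quasi-likelihood model in R 4.3.3 covered 4 conditions, and an adjusted p-value under 0.05 (Benjamini-Hochberg, all genes) was a call. Alternatives were DESeq2 1.42.0, its size factors, total counts only, other filters, only the groups compared, a replicate block, a 1.5-fold minimum, other subunit assignments and each library left out. Protein classes were assigned by hand from general knowledge. Lists were described by counts and medians, and list genes by the 3 called genes at each end, with MYC, NRF1, GABPA, YY1, TFAM and POLRMT. Named members were the 5 called genes at each end of a comparison with control (3 elsewhere), genes past 2-fold, the 3 extremes per length, the S18 family, MRPS30 and MRPS36; MRPS11, MRPL23, MRPL45, HELQ and PSMA2 were chosen after their values were seen. Members and lists were chosen with earlier results of these data known. Scripts were tested on simulated data.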

Additional observations from a re-analysis of the deposited data

Results flagged for a closer look

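These results drew attention because the effect of 1 agent differed with and without the other, by the interaction term of edgeR's quasi-likelihood model. The term passed for 14 members below 0 and for 18 above 0, against 15.9% and 14.4% of all genes tested. Scaled by total counts only, the counts were 18 below and 11 above, against 19.1% and 11.7% of all genes tested. With DESeq2 they were 14 below and 10 above, and shares of all genes were not counted there. The estimates on the log2 scale were -0.35 for MRPS18C, -0.30 for MRPL46 and -0.27 for MRPL39, and 0.38 for MRPL32, 0.36 for MRPL53 and 0.25 for MRPS24. Conditions had 3 libraries each, so no search for outlying libraries was made within them.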

How the results depend on the processing

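With total counts only, no member was higher with the combination against control, 2 were higher against trametinib, and 11 had an interaction above 0. Of all genes tested, 25.8%, 23.5% and 11.7% passed in these directions under that scaling, in the same order. MRPS17 with trametinib (-0.17) and MRPS6 with the combination against trametinib (0.03) also no longer passed. The member median of the interaction, 0.02, was -0.0063 there. DESeq2 gave 10 interactions above 0. When every library had to hold 10 or more counts of a gene, there was 1 member higher with EC359, MRPS18B (3.77, edgeR adjusted p = 0.048). A minimum of 1.5-fold left 2 members lower with EC359, 0 with trametinib, and 13 lower and 0 higher with the combination. Under that minimum the combination had 0 members in either direction against EC359, and 10 lower and 0 higher against trametinib. It also left 0 interactions in either direction. Shares of all genes were not counted with DESeq2, the stricter filter, the 1.5-fold minimum or a library left out, so these member counts stand without a background. With each library left out in turn, between 0 and 1 member was higher with EC359, again MRPS18B, called without EC359 replicate 1 (adjusted p = 0.0177) or 3 (adjusted p = 0.0192), and between 13 and 23 members were lower with trametinib. Of the calls, 60 of 63 with EC359, 12 of 21 with trametinib, 61 of 63 with the combination and 20 of 32 interactions were kept in all 12 such fits, and none changed sign. The cause of these changes was not tested. Other counts of members stayed within 1.5 times under every alternative, and no value called for a named member reversed under another scaling or without a library, whereas MRPS18B, not called with EC359, went from 3.77 to -0.51 without EC359 replicate 2. Same-numbered libraries deviated with correlations of -0.0669 to 0.0304, so the numbers were not taken to pair them, and with a replicate block 63, 20 and 63 members passed for EC359, trametinib and the combination against control. At 24790392 or more counts per library, 3 counts correspond to at most 0.127 CPM, and depth did not limit the members annotated on 1 sequence.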

Other observations

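Of 13 genes for mitochondrial chaperones, proteases and stress factors, the combination lowered 3 and raised 6 (median 0.04), where 34.7% and 35% of all genes tested were lower and higher, or with total counts only lowered 7 and raised 5 (median -0.10). The stress transcription factor DDIT3 was at 0.82, the matrix protease LONP1 at 0.53 and the chaperonin HSPD1 at 0.32 on the log2 scale against control, while the inner membrane protease OMA1 was at -0.91, the protease subunit CLPX at -0.52 and AFG3L2, a protease that matures MRPL32, at -0.08. EC359 raised 5 and lowered 3 of the 13 (median -0.01), or with total counts only raised 4 and lowered 8 (median -0.14). Trametinib raised 2 and lowered 2 (median -0.04), or with total counts only raised 3 and lowered 1 (median -0.01). With total counts only, 45.8% of all genes were lower and 25.8% higher with the combination. The lower and higher shares with EC359 were 30.3% and 30.8%, or 44.9% and 21% with total counts only. With trametinib they were 15.2% and 13%, or 11.9% and 16.7% with total counts only.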
